A study of Mus musculus with 868 samples.

Results

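The Hox genes of the 4 mammalian clusters were examined across the organs of the mouse. Members were the rows whose symbol is Hox, a cluster letter a to d and a number, which gave 39 of the 24421 gene symbols counted in each of 24 tissues. They comprise 11 genes of the Hoxa cluster on chromosome 6, 10 of Hoxb on chromosome 11, 9 of Hoxc on chromosome 15 and 9 of Hoxd on chromosome 2. The study profiled tissues of C57BL/6N mice that were left untreated (labelled WT(No treated)) or received 1 of 17 other treatments, in 868 libraries of 3′ mRNA tags. Sex and age are not stated, no transgene or other allele is named, and the drugs mostly carry no dose, time or route. The titles give 2 h for APAP, 2 weeks by mouth for EMPA and 2 mg per mL for Dox. The main view here rests on the 48 libraries of untreated mice, 2 per tissue. Treated libraries were compared only inside 3 sets of treatments. Set A holds untreated mice, FivePercentSucrose (5% sucrose, called sucrose below), APAP (acetaminophen) and Sofosbuvir. Set B holds Alendronate, Risedronate, Asenapine, Lurasidone and Olanzapine. Set C holds Aripiprazole, Cisplatin, Clozapine, Dox, EMPA, Lenalidomide, Repatha, Teriparatide and 0.5percentCMC0.25percentTween80, called CMCTween below. The sets are groups of treatments that were compared with each other here, and the labels do not name them. The labels do not say that libraries of a group come from separate mice, so the tests measure only the spread between these libraries.

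Hox genes encode homeodomain transcription factors that give cells of the embryo their position from head to tail. Genes at the 3′ end of a cluster (low numbers, the anterior paralog groups) are switched on first and reach far forward, and genes at the 5′ end (high numbers, the posterior groups) follow later and stay near the tail, an order called collinearity. Mesenchyme, muscle, fat, gut and the urogenital organs keep much of this code in the adult, whereas the forebrain, eye and front of the head form without it.

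The sequences upstream of 5 members are shown because 3 of these genes were found in the colon and in no other organ (Hoxd13, Hoxd12 and Hoxa13), and 2 (Hoxa7 and Hoxb8) carry 2 copies each of TTTATG, a core recognised by the Cdx proteins that act upstream of Hox genes in the gut. Each run is the 250 bases before a RefSeq start on build GRCm38.p6, 5′ to 3′ on the gene's strand, and capitals mark TTTATG or its complement CATAAA. Hoxd13 is chr2:74667975-74668224 on the plus strand, Hoxd12 is chr2:74674763-74675012 on the plus strand, Hoxa13 is chr6:52260881-52261130 on the minus strand, Hoxb8 is chr11:96281655-96281904 on the plus strand, and Hoxa7 is chr6:52218574-52218823 on the minus strand, inside the annotated span of that gene.
Hoxd13: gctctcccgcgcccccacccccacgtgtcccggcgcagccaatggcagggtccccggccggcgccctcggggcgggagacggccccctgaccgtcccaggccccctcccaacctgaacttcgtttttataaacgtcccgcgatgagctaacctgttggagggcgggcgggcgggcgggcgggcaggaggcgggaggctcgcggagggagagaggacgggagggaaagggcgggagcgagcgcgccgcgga
Hoxd12: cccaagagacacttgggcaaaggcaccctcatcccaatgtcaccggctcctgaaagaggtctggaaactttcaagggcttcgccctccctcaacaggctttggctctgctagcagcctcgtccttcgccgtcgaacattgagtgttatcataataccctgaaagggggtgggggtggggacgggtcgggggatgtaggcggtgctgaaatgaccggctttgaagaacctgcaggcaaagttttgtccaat
Hoxa13: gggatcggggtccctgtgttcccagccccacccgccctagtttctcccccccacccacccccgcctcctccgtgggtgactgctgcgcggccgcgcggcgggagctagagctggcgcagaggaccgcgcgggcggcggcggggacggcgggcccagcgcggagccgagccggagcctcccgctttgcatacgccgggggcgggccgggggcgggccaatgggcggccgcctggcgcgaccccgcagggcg
Hoxa7: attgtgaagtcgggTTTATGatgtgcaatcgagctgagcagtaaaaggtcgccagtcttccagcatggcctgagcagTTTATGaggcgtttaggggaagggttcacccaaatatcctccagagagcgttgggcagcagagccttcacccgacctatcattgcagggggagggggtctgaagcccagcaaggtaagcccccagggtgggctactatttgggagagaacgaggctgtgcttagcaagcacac
Hoxb8: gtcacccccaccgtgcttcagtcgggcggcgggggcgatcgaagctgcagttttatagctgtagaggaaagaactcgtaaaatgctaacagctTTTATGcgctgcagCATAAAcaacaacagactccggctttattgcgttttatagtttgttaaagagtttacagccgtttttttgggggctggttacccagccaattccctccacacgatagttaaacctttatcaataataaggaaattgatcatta
Windows were available for 22 of the 39 members, and 24 windows in all. TTTATG on either strand occurred in 5 of these 24 windows (Hoxa7, Hoxb8, Hoxd3, Hoxd4 and Hoxd11) and in 10.76% of the 32851 windows of all genes. The GC content of the Hoxa13 window was 80% and that of the Hoxd13 window 74.4%, against a median of 52.4% over all windows.

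Total counts of the 48 untreated libraries ran from 2875950 to 12811780 with a median of 4422231, and the median over all 868 libraries was 877592. Levels are CPM (a gene's count divided by its library's total, on the usual scale on which each library sums to the same value), and a member was called detected in a tissue where both untreated libraries reached 1 CPM. Of 72 marker genes chosen for the 24 tissues, 68 were highest in the tissue whose label they belong to. The exceptions were Myh11 and Cnn1 for the aorta, Fabp1 for the jejunum and Fabp2 for the ileum. Some dissections held neighbouring tissue: the brown fat genes Ucp1 and Cidea summed to 9818 and 9902 CPM in the aorta libraries. The parathyroid genes Pth and Gcm2 summed to 8437 and 6125 CPM in the thyroid libraries, and skeletal muscle genes reached 12630 and 10380 CPM there and 9516 and 9539 CPM in the skin. The part of these tissues in the Hox levels of those libraries was not tested. In bulk tissue, fewer cells of a type and less RNA per cell cannot be told apart.

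Hox transcripts were found in most organs of the trunk and were scarce in the head, the heart, the liver and the pancreas. The bone marrow and the thymus had 5 members detected each, fewer than the brain (6) and the parotid gland (8). Of 936 pairs of a member and a tissue, 282 (30.13%) were detected, and 33 of the 39 members were detected in at least 1 tissue. Hoxb4, an anterior gene also known from blood stem cells, was detected in 20 tissues, and 15 members were detected in 10 or more. The members found in no tissue included Hoxc11, Hoxc12 and Hoxd1, and Hoxd1 had 0 counts in all 48 libraries. In contrast, 6 members were found in a single tissue: Hoxa6, Hoxa13, Hoxb13, Hoxd12 and Hoxd13 in the colon and Hoxc13 in the skin. The kidney had the most members detected (26), followed by the colon (25), the skin (23), and the adrenal gland, aorta and white fat (WAT) with 20 each. The eye, pituitary gland and pancreas had none. In these last 3 tissues the largest CPM of any member in any library was 0.884, for Hoxd11 in the pituitary gland, where 3 counts over both libraries correspond to 0.302 CPM.

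**Figure D1:**
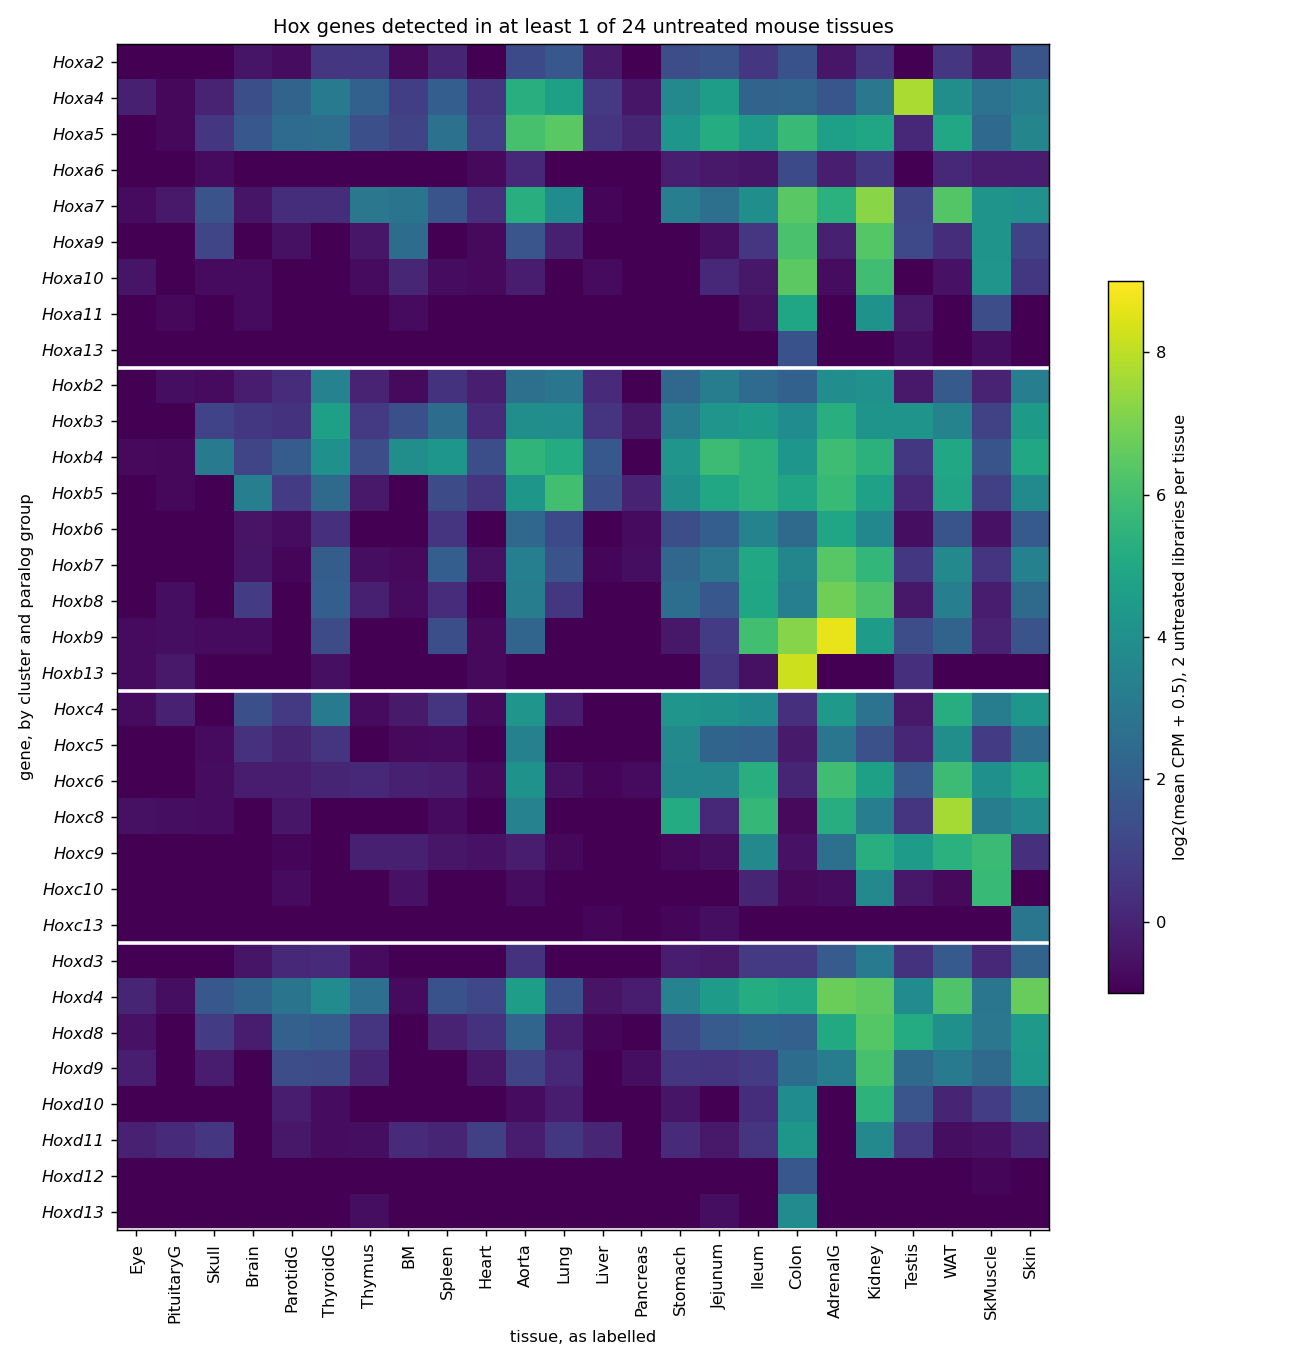
Level of each of the 33 Hox genes detected in at least 1 tissue (rows, by cluster and paralog group) in 24 untreated tissues (columns), as log2 of the mean CPM of 2 libraries plus 0.5. Dark columns at the left are the eye and other head tissues. In the lower rows of Hoxa and Hoxd the bright cells lie mostly in the colon and kidney columns. Hoxb9 is brightest in the adrenal gland, Hoxb13 in the colon, Hoxc9 and Hoxc10 in skeletal muscle and Hoxc13 in the skin.

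The summed level of all 39 members was highest in the adrenal gland (1167 and 1145 CPM in the 2 libraries), the kidney (1024 and 993), the colon (923 and 1015) and WAT (691 and 685). It was lowest in the pancreas (2.54 and 2.26 CPM), the pituitary gland (3.37 and 2.36) and the eye (3.78 and 2.15). Levels and detection rest on column sums, and enzyme transcripts such as Prss2 (81680 CPM on average) fill the pancreas libraries. The organs differed in which cluster and which paralog groups they showed. The adrenal gland expressed members of groups 2 to 9 and the colon members of groups 2 to 13, yet no Hoxc gene was detected in the colon. Of the 33 detected members, 8 were highest in the adrenal gland, 8 in the colon, 7 in the kidney, 3 in the lung and 3 in WAT. The remaining 4 were Hoxc9 and Hoxc10 in skeletal muscle, Hoxc13 in the skin and Hoxa4 in the testis.

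Trunk and head were compared as the mean of 17 trunk tissues against the mean of brain, eye, parotid gland, pituitary gland and skull. The anterior and central genes Hoxa4, Hoxa5, Hoxb3, Hoxb7, Hoxc6 and Hoxd4 were higher in the trunk, and these were 6 of the 31 members that passed the filter on low counts. Over all 18298 genes tested, 50.4% were called, 23.2% higher and 27.3% lower. Hoxa5, which patterns lung and neck, averaged 23.3 CPM over the trunk tissues and 1.80 over the head tissues (log2 fold change 4.01, SE 0.25, adjusted p = 3.62e-15 by edgeR's quasi-likelihood test with Benjamini-Hochberg adjustment). Hoxb3 averaged 12.2 and 0.686 CPM (log2 fold change 4.65, SE 0.36), and Hoxd4 averaged 31.2 and 2.88 CPM (2.41, SE 0.31). Hoxa4 averaged 21.7 and 1.43 CPM (3.02, SE 0.24). Hoxc6 averaged 16.04 and 0.169 CPM (4.79, SE 0.53), with 10 counts in all head libraries, and Hoxb7 had 3 counts in the head against 1967 in the trunk, a ratio of 194.5 with a 95% counting interval of 66.5 to 944.0. For each of these 6 members the libraries of trunk and head overlapped, since some trunk organs, such as the pancreas, held almost none. The median log2 fold change was 2.77 over the members and 0.01 over all genes. DESeq2 called 24 members higher in the same contrast. With tissues as the replicates of the 2 groups and 1 summed library per tissue, edgeR called 7 (5.36% of all genes), of which 3 were among the 6. No member was called lower in any of these fits.

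Within the head, the brain carried members of groups 4 and 5. Hoxb5 was at 9.02 and 9.62 CPM in the 2 brain libraries, Hoxd4 at 4.29 and 4.09, and Hoxa5 at 2.48 and 3.13. Both brain libraries lay above both pituitary libraries for each of these 3 genes. Hoxb5 had 1 count in the pituitary gland, a ratio of 92.4 (95% counting interval 16.1 to 3695, adjusted p = 5.58e-11). Hoxb3, at 1.13 and 0.962 CPM in the brain, was at least 3.47-fold higher against 0 counts, and Hoxc5 had all its 7 counts in 1 brain library. In all, 11 members were higher in the brain than in the pituitary gland by edgeR (41.6% of all genes called, 22.1% higher and 19.5% lower; 14 members at an unadjusted p under 0.05, 11 called by DESeq2), and the calls of Hoxc6 and Hoxd8 rest on 3 counts against 0. The brain label does not say whether hindbrain was included. In the skull 4 members were detected. Hoxb4 (7.26 and 9.48 CPM), Hoxa7 (2.34 and 2.56) and Hoxa9 (1.17 and 2.05) were also detected in the bone marrow, and Hoxd4 was not. In the parotid gland 8 members of groups 4 to 9 were detected, led by Hoxd4 at 5.47 and 8.02 CPM.

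Along the gut the members changed from segment to segment. All 15 members detected in the jejunum, of groups 2 to 8, were also detected in the stomach. The stomach held Hoxb8 and Hoxc8 in addition. Hoxb4 stood at 19.9 and 16.5 CPM in the stomach and 41.5 and 74.4 in the jejunum (log2 fold change 1.28, SE 0.25, adjusted p = 1.36e-04 by edgeR). Hoxc8, a central gene of thoracic identity, went the other way, with 33.5 and 36.4 CPM in the stomach and 0.916 and 0.314 in the jejunum (log2 fold change -6.13, SE 0.63, adjusted p = 2.64e-09). Hoxc5 was also lower in the jejunum (3.66 and 4.71 CPM against 11.7 and 13.6). Of 31 members tested 5 were called, 3 higher and 2 lower, beside 34.3% of all genes (16% higher and 18.3% lower). The other 2 calls, Hoxb13 and Hoxa10, rest on 6 and 4 counts in the jejunum against 0 in the stomach, and the Hoxb13 counts all came from 1 library.

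Between jejunum and ileum, Hoxb and Hoxc genes of groups 6 to 9 differed. Of the 31 members, 6 were higher in the ileum (Hoxb7, Hoxb8, Hoxb9, Hoxc6, Hoxc8 and Hoxc9) and Hoxa4 was lower, whereas 2.33% of all genes were called between these neighbouring segments, 1.4% higher and 0.929% lower. Hoxa7, Hoxa9, Hoxb6, Hoxd8 and Hoxd9, of the same groups, were tested and not called. Hoxb9 rose from 2.14 and 0.314 CPM to 57.0 and 66.8 (log2 fold change 5.72, SE 0.5, adjusted p = 1.23e-09). Hoxc8 rose from 0.916 and 0.314 CPM to 57.7 and 43.5 (6.39, SE 0.63, adjusted p = 3.20e-08), so that the level in the ileum was above that of the stomach and the jejunum between them was near 0. Hoxb8 rose from 0.610 and 5.02 CPM to 25.1 and 35.1. Hoxb7 rose from 5.80 and 8.79 CPM to 31.9 and 29.9 and Hoxc6 from 10.99 and 12.6 to 38.9 and 36.5. Hoxc9 had 1 count in the jejunum and stood at 13.03 and 12.2 CPM in the ileum, a ratio of 82.0 (95% counting interval 14.4 to 3273). Hoxa4, in contrast, fell from 21.4 and 25.1 CPM to 4.66 and 3.48 (log2 fold change -2.37, SE 0.35, adjusted p = 3.97e-05). The 2 libraries of the ileum and the 2 of the jejunum did not overlap for any of these 7 members.

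From ileum to colon 20 of the 31 members changed, 12 higher and 8 lower, beside 16.8% of all genes (8.22% higher and 8.53% lower). The posterior genes appeared. Hoxb13, the last gene of its cluster, was at 268 and 330 CPM in the colon and had 1 count in the ileum, a ratio of 2154 with a 95% counting interval of 386.4 to 85130 (adjusted p = 3.32e-09). Hoxa10 stood at 89.4 and 87.1 CPM in the colon and 0.233 and 0.348 in the ileum. Hoxa11 was at 29.2 and 29.7 CPM with 1 count in the ileum, a ratio of 211.4 (95% counting interval 37.7 to 8380). Hoxd13, known for limb and hindgut patterning, stood at 9.89 and 17.8 CPM in the colon and had 0 counts in the ileum, at least 33.4-fold higher against 3 counts over the group. Hoxd12 (2.79 and 2.79 CPM) was likewise at 0 in the ileum and at least 6.68-fold higher in the colon. Hoxb13, Hoxd12 and Hoxd13 passed the filter on low counts only through the colon, where they are high. Their calls are among the 12 and are not separate from that filter. Hoxa13, at 2.79 and 1.99 CPM in the colon, did not pass the filter on low counts and has no test. At the same time all 9 Hoxc genes were below 1 CPM in both colon libraries. Hoxc8 had 1 count in both colon libraries together and was called lower (adjusted p = 2.77e-10), and Hoxc6 fell from 38.9 and 36.5 CPM to 0.430 and 0.598 (log2 fold change -6.1, SE 0.52, adjusted p = 1.64e-11). Hoxc4 fell from 14.9 and 13.2 CPM to 0.645 and 0.997 (log2 fold change -4.04, SE 0.57). Hoxc9, at 13.03 and 12.2 CPM in the ileum, and Hoxc5, at 4.42 and 3.13, had 2 and 3 counts in the colon. Within the Hoxb cluster the neighbours parted: Hoxb4, Hoxb7 and Hoxb8 were lower in the colon than in the ileum and Hoxb9 and Hoxb13 were higher, with Hoxb9 at 144 and 148 CPM in the colon.

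**Figure D2:**
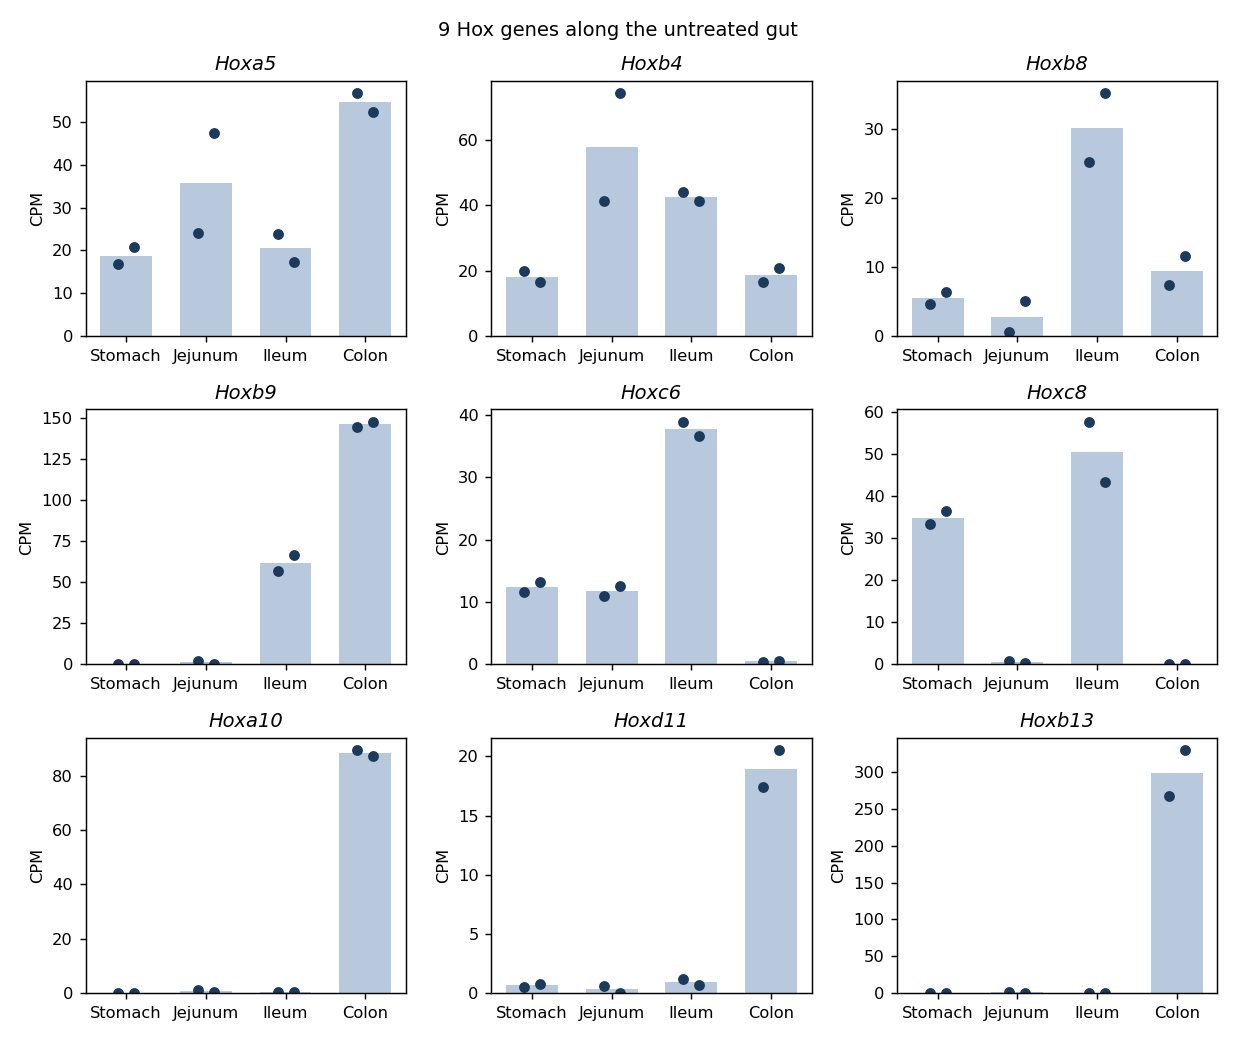
CPM of 9 Hox genes in the stomach, jejunum, ileum and colon of untreated mice (points are the 2 libraries of each segment, bars their mean, axes from 0). Hoxc8 is present in stomach and ileum and near 0 in jejunum and colon, and Hoxa10, Hoxd11 and Hoxb13 are present in the colon with all other segments near 0.

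The smooth muscle genes Des, Actg2 and Myh11, as a measure of how much muscle wall a segment held, summed to 4264 and 4174 CPM in the stomach, 945 and 1602 in the jejunum, 2294 and 2413 in the ileum and 4726 and 3382 in the colon. Their part in the Hox differences between segments was not tested. Among the genes that act beside the clusters, Cdx1 was at 72.6 and 71.6 CPM in the jejunum, 109.9 and 100.1 in the ileum and 160.3 and 192.6 in the colon, and had 0 counts in the stomach. Cdx2 was at 29.3 and 22.6, 33.8 and 33.0, and 32.2 and 31.9 CPM in the same 3 segments. Neither gene passed the test between colon and ileum (adjusted p = 0.209 for Cdx1 and 1 for Cdx2).

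Of 8 noncoding RNAs of the clusters, 6 were tested, and 4 of them (Hottip, Hoxa11os, Hoxaas3 and Hoxb5os) were higher in the colon than in the ileum, beside 8.22% of all genes. Hottip and Hoxa11os lie at the posterior end of the Hoxa cluster, and Hoxaas3 and Hoxb5os beside anterior and central genes. Hottip, transcribed from beyond the Hoxa13 end of its cluster, was at 29.5 and 29.9 CPM in the colon and had 0 counts in the ileum, at least 71.0-fold higher (adjusted p = 1.30e-06). Hoxa11os, on the strand opposite to Hoxa11, was at 358.1 and 341.7 CPM in the colon and 6.11 and 5.94 in the kidney, the next tissue. Hoxa11 itself was at 29.2 and 29.7 CPM in the colon and 17.6 and 15.3 in the kidney. The 2 genes overlap and the strand setting of the counting is not given in the sources used here, so reads of one and of the other cannot be told apart. Evx1, the homeobox gene next to Hoxa13, was at 4.51 and 2.79 CPM in the colon with 0 counts in the ileum (at least 8.66-fold higher, adjusted p = 0.004). Hotair, the noncoding RNA of the Hoxc cluster, had 0 counts in the colon.

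The kidney, the testis and the adrenal gland differed from each other in the members they held. By detection alone the adrenal gland was not distinct, since the same 20 members were detected in WAT. The kidney expressed members of all 4 clusters up to group 11 and was the peak tissue of Hoxa7, Hoxa9, Hoxb2, Hoxd3, Hoxd8, Hoxd9 and Hoxd10. Hoxa7 was at 143.8 and 157.4 CPM there, Hoxd8 at 83.7 and 80.7, and Hoxd10 at 41.4 and 46.4. Hoxa11 (17.6 and 15.3 CPM) and Hoxd11 (11.98 and 13.5) are a pair needed for the embryonic kidney. Both were detected in the kidney and the colon, Hoxa11 also in skeletal muscle (2.43 and 1.77 CPM) and Hoxd11 also in the heart (1.31 and 1.43). Against the lung, 24 of 31 members differed, 21 higher in the kidney and 3 lower, beside 49.6% of all genes (22.2% higher and 27.3% lower). Hoxa10, Hoxa11, Hoxb9, Hoxc5, Hoxc8, Hoxc10 and Hoxd3 had 0 counts in the lung, and Hoxa10 was at least 236-fold higher in the kidney, Hoxb9 at least 87.4-fold, Hoxa11 at least 63.4-fold and Hoxc10 at least 48.5-fold. Hoxc9 had 1 count in the lung and 347 in the kidney, a ratio of 455 (95% counting interval 81.1 to 18020). The 3 members lower in the kidney were Hoxa4 (log2 fold change -1.5, SE 0.31), Hoxa5 (-1.3, SE 0.3) and Hoxb5 (-1.0, SE 0.3), which are leading genes of the lung.

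The adrenal gland had the largest level of a single member, Hoxb9 at 392.5 and 430.3 CPM, and was the peak tissue of 6 of the 10 Hoxb genes. Hoxb8 was at 107.2 and 117.9 CPM and Hoxb7 at 84.3 and 83.4. Beyond group 9 the code stopped there: Hoxa11, Hoxd10 and Hoxd11 had 0 counts in both adrenal libraries, while the neighbouring kidney held them at 11.98 to 46.4 CPM. Of 31 members 12 were higher in the kidney than in the adrenal gland and 5 were lower (Hoxb3, Hoxb9, Hoxc4, Hoxc6 and Hoxc8), beside 42.1% of all genes (22% higher and 20.1% lower). Hoxb9 was at 23.1 and 22.4 CPM in the kidney (log2 fold change -3.83, SE 0.37, adjusted p = 1.76e-10 by edgeR). Hoxc8 (12.2 and 6.17 CPM in the kidney against 41.6 and 33.5), Hoxc4 (6.78 and 6.17 against 21.2 and 19.5), Hoxc6 and Hoxb3 fell by less. In the kidney Hoxd10 was at least 110-fold higher, Hoxa11 at least 41.5-fold and Hoxd11 at least 32.0-fold. Hoxa10 had 1 count in the adrenal gland, a ratio of 462.5 (95% counting interval 82.7 to 18300), and Hoxa9 had 3, a ratio of 203.9 (69.5 to 991.3).

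In the testis 1 gene stood far above the rest. Hoxa4, a gene known for its transcription in male germ cells, was at 208.6 and 216.6 CPM, and the next tissue was the aorta at 42.2 and 34.1. The testis held 11 members, of which Hoxd8 (31.2 and 38.5 CPM), Hoxc9 (22.8 and 21.4) and Hoxb3 (19.8 and 15.5) followed Hoxa4. Against the kidney 25 of 31 members were called, where 70.5% of all genes were (38.3% higher and 32.2% lower): 23 were lower in the testis and Hoxa4 and Hoxb13 were higher. The Hoxb13 call rests on 5 counts in 1 testis library against 0. Hoxa10 had 0 counts in the testis and was at least 139-fold lower than in the kidney. Hoxa7 was at 1.39 and 1.87 CPM in the testis (log2 fold change -6.36, SE 0.49), and Hoxa11, Hoxb6 and Hoxb8 had 1 or 2 counts there. Hoxa5, the neighbour of Hoxa4, was at 29.1 CPM in the kidney and 0.589 in the testis, opposite to Hoxa4, for which the log2 fold change was 5.01 (SE 0.34, adjusted p = 4.48e-15). Hoxa4 lies inside the annotated span of Hoxa3 on the same strand, so the counts of these 2 genes are uncertain.

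**Figure D3:**
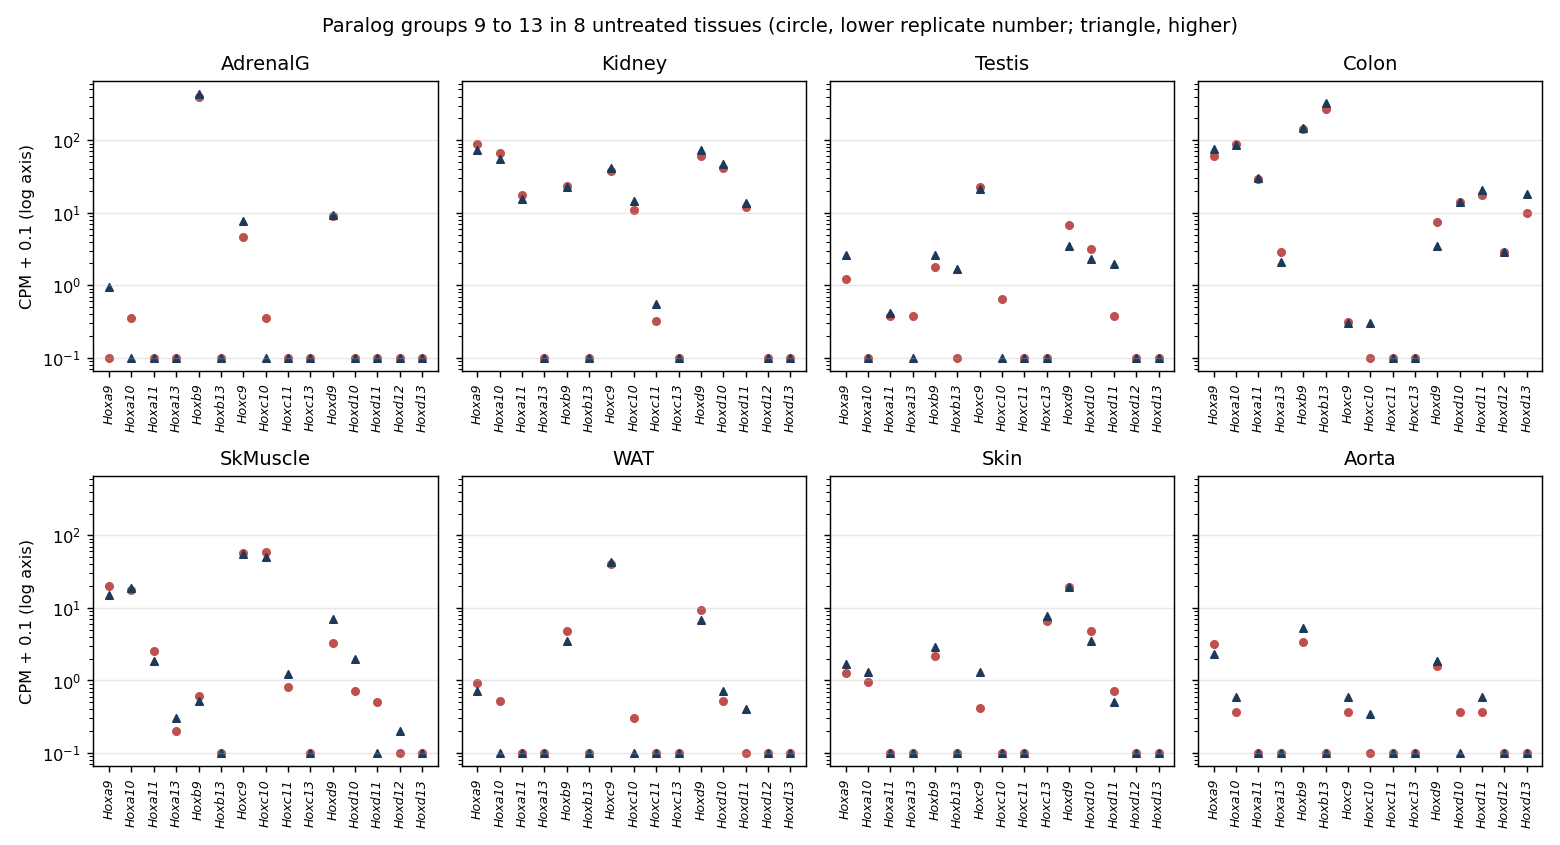
Members of paralog groups 9 to 13 in 8 untreated tissues as CPM plus 0.1 on a log axis (circles, the library with the lower replicate number; triangles, the other). The colon shows members of Hoxa, Hoxb and Hoxd up to group 13 and none of Hoxc above 1 CPM, skeletal muscle is led by Hoxc9 and Hoxc10, and the adrenal gland by Hoxb9.

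The lung was led by Hoxa5 (93.2 and 80.5 CPM) and Hoxb5 (65.7 and 59.5), both needed for the branching lung, and had no member above group 7. Compared with the thyroid gland, 11 of 31 members were called, beside 35.1% of all genes (19.2% higher and 15.9% lower), with 5 higher in the lung and 6 lower. Hoxa5 was at 5.13 and 5.95 CPM in the thyroid (log2 fold change 4.03, SE 0.35, adjusted p = 5.93e-11). Hoxd4 was lower in the lung, with 2.34 CPM on average against 13.6 and 14.1 CPM in the thyroid (log2 fold change -2.49, SE 0.38, adjusted p = 1.72e-06). Hoxc4 was lower as well, with a mean of 0.338 CPM in the lung and libraries of 10.3 and 6.27 CPM in the thyroid. Hoxa7 was at 14.6 and 13.2 CPM in the lung against 0.513 and 0.940, Hoxb5 at 65.7 and 59.5 against 6.92 and 3.13, and Hoxa4 and Hoxb4 were higher by log2 fold changes of 1.63 (SE 0.32) and 1.19 (SE 0.26). Hoxb9, Hoxc5 and Hoxd3 had 0 counts in the lung and 14, 7 and 5 in the thyroid. Hoxd8 was at 3.08 and 3.45 CPM in the thyroid and had 4 counts in the lung. Hoxd4 was the only gene of the Hoxc and Hoxd clusters detected in the lung.

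Heart, aorta and skeletal muscle differed strongly. The heart had 4 members detected, none above 2.44 CPM in a library. In the aorta 20 members were higher than in the heart and Hoxd11 was lower (34% of all genes called, 17.8% higher and 16.2% lower). Hoxa5 led with 73.8 and 61.0 CPM in the aorta and 1.31 and 1.23 in the heart (log2 fold change 5.33, SE 0.4, adjusted p = 1.47e-12). Hoxb4 was at 43.6 and 48.9 CPM and Hoxa7 at 43.8 and 35.6. Hoxc8, Hoxc5, Hoxb8 and Hoxb6 had 0 counts in the heart and were at least 35.7-fold, 34.2-fold, 30.1-fold and 16.8-fold higher in the aorta. Hoxc4 was at 17.7 and 18.3 CPM with 1 count in the heart. Hoxd11, a posterior gene, had 14 counts in the heart and 4 in the aorta (log2 fold change -2.26, SE 0.86, adjusted p = 0.039). This call was lost with column sums as scaling, with only these tissues in the fit and with any 1 of the 4 libraries left out. The Hoxd11 call was also lost with the replicate number as a block. The brown fat genes given above were high in these aorta libraries. In skeletal muscle 20 members were higher than in the heart (34.5% of all genes called, 17.4% higher and 17.1% lower; 25 members at an unadjusted p under 0.05 and 19 called by DESeq2). Here the leading genes were posterior: Hoxc10, which is known from the hindlimb and lumbar levels, was at 58.8 and 50.1 CPM, Hoxc9 at 57.6 and 55.5, and Hoxa9 at 20.3 and 14.8. Hoxc10 had 0 counts in the heart and was at least 186-fold higher in skeletal muscle. Hoxc8 was also at 0 and at least 30.7-fold higher. Hoxc9 had 2 counts in the heart, a ratio of 289.1 (95% counting interval 79.8 to 2390), and Hoxa9 and Hoxa10 had 1 each. Which muscle was taken is not given in the labels.

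White fat and skin both expressed Hoxc and Hoxd genes but at different levels. WAT held the largest Hoxc8 level, 198.0 and 208.4 CPM, against 9.99 and 17.3 in the skin (log2 fold change 4.02, SE 0.43, adjusted p = 3.35e-09). Hoxc9 was at 40.7 and 42.9 CPM in WAT and 0.312 and 1.21 in the skin (6.15, SE 0.5, adjusted p = 1.42e-12), and Hoxa7 at 84.1 and 76.2 against 11.1 and 21.4. In the other direction Hoxc13, which controls keratin genes of hair and nail, was at 6.48 and 7.66 CPM in the skin with 0 counts in WAT. Hoxc13 passed the filter on low counts only through the skin, so its call is not separate from that filter. Hoxd10 was at 4.68 and 3.43 CPM in the skin and 0.415 and 0.617 in WAT, Hoxb2 at 12.02 and 6.25 against 4.36 and 1.85, and Hoxb3 at 17.7 and 24.6 against 12.5 and 8.95. Hoxa5 (31.1 and 32.1 CPM in WAT) and Hoxc5 (14.3 and 15.7) were higher in WAT by log2 fold changes of 1.59 (SE 0.31) and 1.58 (SE 0.45). The skin held Hoxd4 at 100.1 and 105.6 CPM, close to the adrenal gland (107.0 and 107.9), and Hoxd9 at 19.6 and 19.3. Altogether 9 members were higher and 5 lower in WAT, beside 36.4% of all genes (16.6% higher and 19.7% lower). Untreated skin was low in several members relative to other skin libraries, as given below. In the treated libraries of set A, Hoxa4, Hoxa5 and Hoxa7 were not called between WAT and skin (log2 fold changes -0.34, -0.36 and -0.08).

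In the blood-forming organs few members were present, most of them anterior or central. Hoxb4 was at 15.3 and 14.2 CPM in the bone marrow and 2.07 and 2.03 in the thymus (log2 fold change 3.15, SE 0.33, adjusted p = 1.53e-09). Hoxa9, a gene of blood progenitors, was at 5.24 and 5.42 CPM in the bone marrow, with 2 counts in the thymus. Hoxd4 went the other way, with 1 count in the bone marrow and 6.21 and 5.40 CPM in the thymus. Hoxa4 was at 1.01 and 1.58 CPM in the bone marrow and 3.25 and 4.28 in the thymus, and the calls of Hoxd8 and Hoxa2 rest on 8 and 9 counts in the thymus against 0 and 1. Of 31 members 6 were called (40.7% of all genes, 16.1% higher and 24.6% lower), 2 higher and 4 lower in the bone marrow. Hoxa7 was alike in both, at 7.86 and 5.65 CPM in the bone marrow and 8.28 and 6.31 in the thymus. In the spleen 9 members were detected, led by Hoxb4 (15.3 and 21.6 CPM).

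The pancreas and parotid gland, both glands of digestive enzymes, were compared because enzyme transcripts fill their libraries. No member was detected in the pancreas, and 5 were lower there than in the parotid gland (Hoxa4, Hoxa5, Hoxb4, Hoxd4 and Hoxd8), beside 30% of all genes (12.5% higher and 17.4% lower). Hoxb4 and Hoxd8 had 0 counts in the pancreas and were at least 8.30-fold and 9.60-fold lower in CPM, which rests on column sums. Hoxd4, Hoxa4 and Hoxa5 had 3, 2 and 4 counts in the pancreas against 108, 65 and 81. The fit, which scales libraries by TMM, gave log2 fold changes of -2.47 for Hoxd4 and -2.31 for Hoxa4. With column sums as scaling, 64.2% of all genes were called, so folds in CPM depend on the scaling here. Of these 5 calls, 3 were made by DESeq2, and 3 with only these 2 tissues in the fit. The liver, another organ of the gut tube, held 3 members, led by Hoxb4 (2.81 and 2.98 CPM), and its summed level of 10.9 and 10.1 CPM was below that of the brain (26.2 and 29.8).

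Neighbours in a cluster had similar patterns over the 24 tissues. Among the 26 members detected in at least 3 tissues, the Pearson correlation of log2(CPM + 0.5) over tissue means had a median of 0.88 for the 20 pairs next to each other. The median was 0.82 for 31 pairs 2 to 3 places apart, 0.58 for 23 pairs 4 or more places apart, 0.68 for 24 pairs of the same paralog group in other clusters, and 0.52 for the other 227 pairs. Hoxb6 and Hoxb7 were most alike (0.98), followed by Hoxb7 with Hoxb8 and Hoxa10 with Hoxa11 (both 0.96). Hoxa4 and Hoxa5 were least alike among neighbours (0.56), Hoxa4 being highest in the testis. The tissue values share libraries and depth, and the counts of overlapping neighbours are uncertain: Hoxc5 spans Hoxc6, Hoxc8, Hoxc9 and Hoxc10 in the GENCODE annotation, and Hoxd3 overlaps Hoxd4. These correlations are descriptions and carry no test.

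The tissue differences were then sought in libraries that the untreated fit had not used, with treatment as a second term of the model. Leaving out the trunk and head contrast, the untreated fit had made 186 calls of a member in a contrast. In the 146 other libraries of set A, 155 of these (83.3%) were called again in the same direction. In the 242 libraries of set B it was 141 (75.8%), with 160 of the 186 passing the filter on low counts, and in the 432 libraries of set C 155 (83.3%). Over all genes in the same 13 contrasts, 41.3% of tests were called in set A, 46.7% in set B and 55.1% in set C. These shares count every gene tested, called before or not, and so are not rates of being called again. That rate was not computed for all genes. No member called in the untreated fit was called in the opposite direction by edgeR in any set. Among those not called again in set A were the 2 Hoxb13 differences that rest on 5 or 6 counts of 1 untreated library (jejunum against stomach and testis against kidney). All 7 differences between ileum and jejunum were called again in each set. These libraries come from other treatments of the same study and were less deep, at a median of 969793 counts in set A, 718303 in set B and 903356 in set C.

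Some levels moved between sets although the pattern over tissues was shared. Over all 936 pairs, the log2 levels of untreated tissues and of set A, B and C correlated at 0.977, 0.957 and 0.954. Of 33 members, 29, 30 and 30 had the same peak tissue. Hoxa4 in the testis had a median of 240.9 CPM in the treated libraries of set A (189.2 to 258.7), 90.5 in set B (80.6 to 96.3) and 95.3 in set C (78.6 to 114.9), so set A did not overlap the others. Hoxc8 in WAT had medians of 183.9 CPM in set A, 488.3 in set B and 520.3 in set C. Treatment and set cannot be told apart across sets, which is why no treatment was compared across them. Hoxb13 in the colon was present in every library, at 116.0 to 298.6 CPM in the treated libraries of set A, 111.2 to 252.4 in set B and 81.5 to 195.9 in set C.

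The Hox profile also served to check tissue labels. For the 13 tissues with 10 or more members detected, each library was compared with the median profile of each tissue in its set, itself left out. Of 470 libraries 463 were nearest to their own tissue. The other 7 were CMCTween replicate 4 of jejunum and of ileum, both Cisplatin libraries of the ileum, APAP replicate 1 of the jejunum, Olanzapine replicate 2 of WAT and Clozapine replicate 3 of WAT. The library labelled jejunum of CMCTween replicate 4 had Hoxc8 at 114.0 CPM, where the other 17 jejunum libraries of its set had 0.0 to 7.67. It also had the ileal bile acid carrier Fabp6 at 6184 CPM (others 0.0 to 19.6) and the jejunal enzyme Lct at 1.14 (others 58.8 to 605.0). The library labelled ileum of the same treatment and number had Hoxc8 at 0, Fabp6 at 1.76 and Lct at 47.4 CPM. Both libraries thus went against their labels, in Hox genes and in markers of the epithelium. Treatment calls of set C in these 2 tissues are therefore also given without them. The tissue contrasts and levels of set C given above include both libraries.

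**Figure D4:**
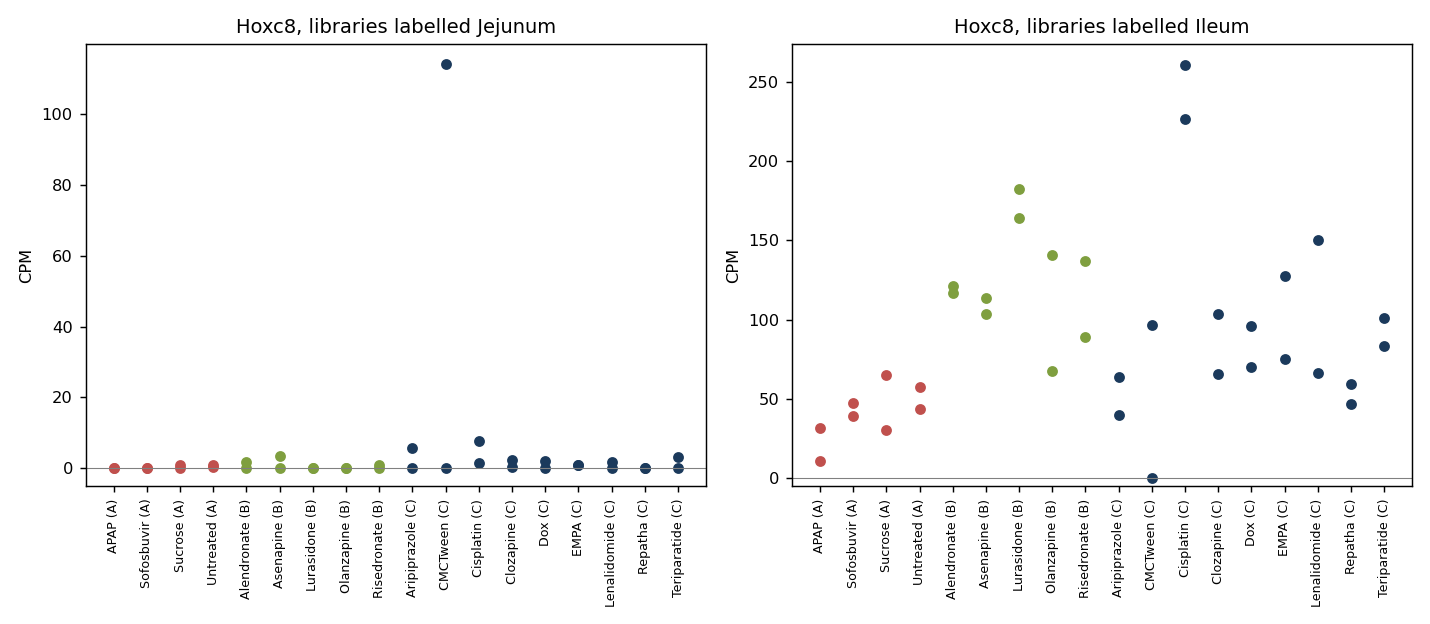
CPM of Hoxc8 in libraries labelled jejunum (left) and ileum (right), by treatment, with the set in brackets. Sofosbuvir has 4 jejunum libraries, not all of which are plotted. In the jejunum 1 CMCTween library lies at 114.0 CPM with all others at or below 7.67, and in the ileum 1 CMCTween library lies at 0 with all others at 10.8 or above.

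In WAT, Clozapine replicate 3 had Hoxc8 at 36.9 CPM, against 319.7 to 586.1 in the other 17 libraries of set C. The fat cell genes Adipoq (387.9 against 2391 to 4086 CPM), Plin1 and Lep were low in that library too. In the skin, CMCTween replicate 3 had Hoxc13 at 253.4 CPM, against 7.35 to 23.7 in the other 17 libraries of the set. The same library had the hair keratins Krt31 at 1939 CPM (others 0.0 to 34.3) and Krt81 at 4095 (others 0.0 to 98.8). Over 36 skin libraries the log2 level of Hoxc13 correlated at 0.67 with Krt31, 0.63 with Krt81 and 0.53 with Krtap3-2, another hair gene, and at 0.39, 0.37 and -0.02 without that library.

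Within sets, few Hox genes were called between a treatment and its reference. Over 384 comparisons of a treatment with its reference in a tissue, 124 of 2992 member tests were called (4.14%), 83 higher and 41 lower, beside 3.08% of tests of all genes. DESeq2 called 59. Without the 4 libraries that stand apart (the 2 gut libraries of CMCTween replicate 4, CMCTween replicate 3 of the skin and Clozapine replicate 3 of WAT) the number was 97. Cisplatin had the most (29 of 187, 15.5%, beside 11.5% of all genes), followed by sucrose (15, or 8.02%, beside 6.43%) and APAP (12, or 6.42%, beside 10.2%). The skin held 47 of the 124 calls (14.7% of its member tests, beside 6.19% of all genes). References were CMCTween in set C, the other 4 drugs in set B, untreated for sucrose, and untreated with sucrose for APAP and Sofosbuvir, so the comparisons of a set share control libraries.

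**Figure D5:**
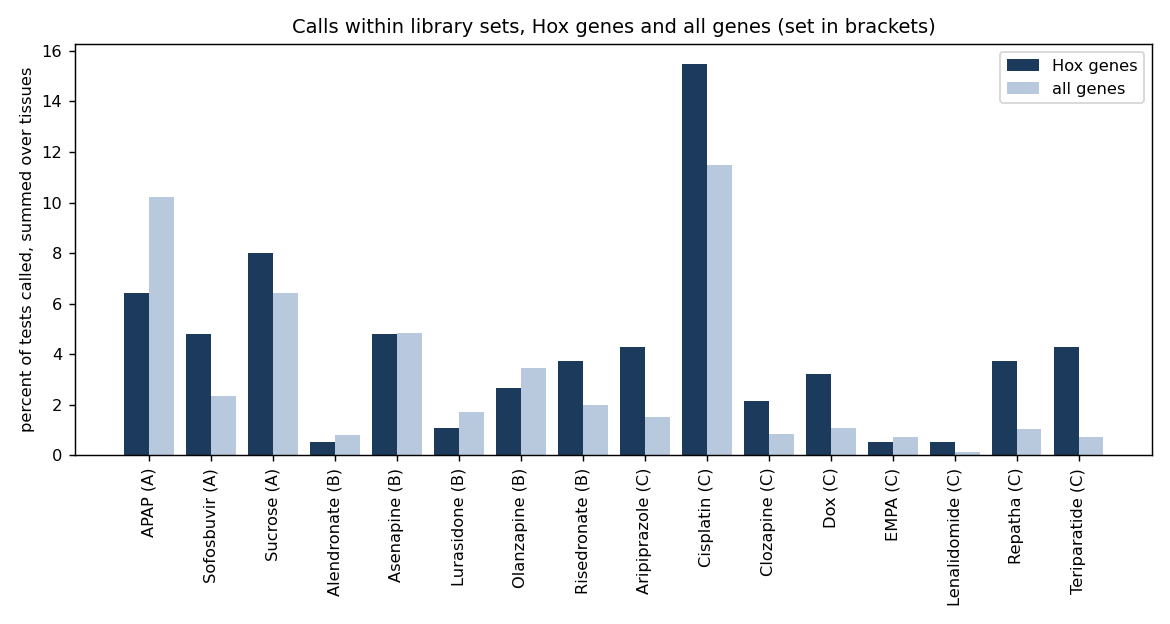
Percent of tests called at an adjusted p under 0.05 within library sets, summed over 24 tissues, for Hox genes (dark) and for all genes (light), with the set in brackets. Cisplatin has the highest share for both, 15.5% and 11.5%.

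In the Cisplatin ileum 6 of 15 members tested were higher (Hoxa7, Hoxc6, Hoxc8, Hoxc9, Hoxd4 and Hoxd8), where 30.1% of all genes were called. Hoxc8 was at 226.7 and 260.8 CPM with Cisplatin, and at 96.6 CPM and 0 in the 2 CMCTween libraries, of which the second is the library that went against its label. Hoxc6 was at 157.8 and 156.7 CPM, above every other ileum library of the set, the highest of which was an EMPA library at 104.2. Without that CMCTween library, Hoxc6 (log2 fold change 0.97, adjusted p = 0.024 by edgeR) and Hoxc8 (1.14, adjusted p = 0.029) were still called higher. Hoxc9 (30.8 and 22.8 CPM with Cisplatin), Hoxa7 (12.7 and 22.8), Hoxd8 (19.95 and 19.95) and Hoxd4 (23.6 and 28.5) had adjusted p values of 0.050 to 0.078 there. In that fit 4 members were called beside 23.6% of all genes, Hoxb4 (1.57, adjusted p = 0.006) being also higher and Hoxb9 lower (-2.27, adjusted p = 0.006). The same 2 Cisplatin libraries had Fabp6 at 16.3 and 15.7 CPM, against a median of 5351 in the other libraries, the collagen gene Col1a1 at 823.5 and 795.1 (median 240.6) and the stem cell gene Lgr5 at 5.44 and 8.55 (median 30.0). Their part in the Hox levels was not tested.

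In the Cisplatin colon 6 members were called, 4 lower and 2 higher, beside 10.9% of all genes. Hoxb13 was at 81.5 and 89.1 CPM, below 195.9 and 152.6 in the CMCTween libraries (log2 fold change -1.08, SE 0.21, adjusted p = 3.30e-04). Hoxa9 was at 40.1 and 44.6 CPM against 78.0 and 88.8, Hoxa7 at 27.6 and 28.6 against 40.6 and 64.9, and Hoxa10 at 41.4 and 42.3 against 59.3 and 76.3. Higher were Hoxa11 (18.8 and 25.1 CPM against 5.49 and 6.83) and Hoxb6 (20.1 and 20.6 against 4.39 and 6.83). Without CMCTween replicate 3 or Cisplatin replicate 3 there were 2 calls, and without Cisplatin replicate 1 there were 3. Under Cisplatin, 3 members were called higher in 3 tissues each: Hoxd4 in the adrenal gland, ileum and thymus, Hoxc9 in the ileum, kidney and skin, and Hoxa7 in the aorta, ileum and skin. Without the CMCTween libraries that stand apart the 3 ileum calls did not pass (adjusted p of 0.078, 0.063 and 0.050 for Hoxd4, Hoxc9 and Hoxa7), nor did Hoxa7 in the skin (0.088), so none of the 3 members was then called in 3 tissues. DESeq2 did not call Hoxd4 in the adrenal gland or the ileum (adjusted p of 0.208 and 0.104). With Cisplatin, 44.9% of all genes tested were called in the thymus, 23.4% in the kidney, 10.9% in the adrenal gland and 4.32% in the aorta. In the thymus, Hoxd4 was at 17.8 and 20.7 CPM with Cisplatin and at 1.31 and 3.23 in CMCTween (log2 fold change 2.78, SE 0.62, adjusted p = 2.94e-04). Under Asenapine, Hoxc6 was lower in the adrenal gland, skeletal muscle and stomach, where 4.19%, 6.08% and 5.6% of all genes were called. In the adrenal gland Hoxc6 was at 70.4 and 90.5 CPM with Asenapine and at 122.5 to 162.9 in the other drugs of set B.

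The skin had the largest share of calls, and its CMCTween and untreated libraries were both low in several members. Hoxa5 was at 15.5 and 14.9 CPM in CMCTween and 10.7 and 11.9 in untreated skin, against 52.8 and 42.1 with sucrose, 69.2 and 80.1 with Dox and 49.0 and 69.7 with Cisplatin. Hoxc9 was at 2.74 and 3.13 CPM in CMCTween and 0.312 and 1.21 in untreated skin, against 18.8 and 8.95 with sucrose and 23.3 and 22.3 with Cisplatin. Low values also occurred in treated skin: Hoxa5 was at 7.60 and 7.12 CPM with Lenalidomide and Hoxc9 at 1.498 and 0 with Olanzapine. Relative to untreated skin, 5 members were called higher with sucrose and Hoxd4 lower, beside 12.5% of all genes called. Among the 5, Hoxa7 was at 122.5 and 72.5 CPM against 11.1 and 21.4 (log2 fold change 2.55, SE 0.35, adjusted p = 8.71e-05 by edgeR). Hoxa7 was also above untreated skin with APAP (51.8 and 40.0 CPM) and Sofosbuvir (55.8 and 73.6), so its difference was not particular to sucrose. The body site of the skin is not given in the labels, and its part in these levels was not tested.

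Relative to CMCTween, 6 of 20 members were called in the Aripiprazole skin and 6 in the Cisplatin skin, beside 3.44% and 16.5% of all genes. In the Aripiprazole skin Hoxa5 (53.1 and 39.6 CPM), Hoxa7 (20.7 and 27.0), Hoxc5 (14.1 and 12.6), Hoxc6 (48.9 and 76.5) and Hoxc9 (15.8 and 25.2) were higher. In the Cisplatin skin Hoxd8 (45.3 and 46.0 CPM against 13.7 and 20.3) and Hoxd9 (19.6 and 15.3 against 3.65 and 7.03) were higher, besides Hoxa5, Hoxa7 and Hoxc9. Hoxc13 was called lower in the skin of all 8 treatments of set C. Without CMCTween replicate 3, which held the hair keratins, none of these 8 Hoxc13 differences was called by edgeR, and the log2 fold changes lay from -0.07 to 1.0. None of the 6 Aripiprazole calls kept an adjusted p under 0.05 in that fit (0.186 to 0.781), in which 0.00854% of all genes were called. The log2 fold changes of the 5 higher members were 1.78 for Hoxa5, 2.06 for Hoxa7, 1.96 for Hoxc5, 1.23 for Hoxc6 and 2.92 for Hoxc9 with the library, and 1.83, 2.1, 2.25, 1.19 and 2.86 without it. For Aripiprazole there were 0 calls without Aripiprazole replicate 2 and 1 without Aripiprazole replicate 4. For Cisplatin there were 2 calls, both among the 6, Hoxa5 (log2 fold change 2.0, adjusted p = 0.008) and Hoxc9 (2.85, adjusted p = 0.025). For Dox 5 members were called with (beside 11.3% of all genes) and 5 without that library. Hoxa5, Hoxa7 and Hoxb7 were called in both fits, Hoxc9 and Hoxc13 only with it (adjusted p of 0.110 and 0.584 without) and Hoxb6 and Hoxb8 only without it, Hoxa7 being at 85.2 and 48.6 CPM against 6.38 and 6.25 (3.42 on the log2 scale without it, adjusted p = 2.63e-04).

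In the adrenal gland, Hoxd4 was called higher under Aripiprazole, Cisplatin, Clozapine, Dox, Repatha and Teriparatide, where 3.84%, 10.9%, 4.78%, 3.65%, 6.44% and 7.89% of all genes were called. These 6 comparisons share the same 2 CMCTween libraries, which were at 25.7 and 26.7 CPM, below the other 16 libraries of the set (38.3 to 74.0). DESeq2 called Hoxd4 higher under Aripiprazole, Clozapine and Repatha, with adjusted p of 0.124 to 0.208 for the other 3. Aripiprazole was at 64.9 and 74.0 CPM (log2 fold change 1.38, SE 0.25, adjusted p = 8.86e-04). In the colon of set B, 6 members were called with Risedronate (beside 12.6% of all genes), 2 higher (Hoxb13 and Hoxd13) and 4 lower (Hoxb3, Hoxb7, Hoxb8 and Hoxb9). Hoxd13 was at 66.6 and 49.0 CPM, against 18.9 to 50.8 in the 8 other libraries, so the groups overlapped. Hoxb8 (1.53 CPM and 0) and Hoxb7 (3.83 and 2.88) were below all 8 other libraries. Hoxb3 (14.5 and 11.5, others 7.92 to 56.8) and Hoxb9 (68.1 and 77.7, others 69.8 to 113.5) overlapped the others, and Hoxb13 at 218.0 and 252.4 CPM overlapped the others (111.2 to 221.6). Leaving out 1 library at a time gave 0 to 6 calls, with 0 without Risedronate replicate 1, 1 without Risedronate replicate 2, and 3 without Alendronate replicate 1 or Lurasidone replicate 1. In the colon of set A, Hoxb13 was lower with Sofosbuvir, at 201.2 and 116.0 CPM against 268.0 to 330.4 (log2 fold change -0.96, SE 0.16, adjusted p = 2.46e-04), where 4.07% of all genes were called.

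Genes whose proteins work with Hox proteins were present in the head as well. Of the 9 TALE genes (Pbx, Meis and Pknox, whose proteins bind DNA together with Hox proteins), 7 were lower in the trunk than in the head, where 27.3% of all genes were lower and 23.2% higher, Meis2 by a log2 fold change of -1.79 (SE 0.1, adjusted p = 1.39e-16). The largest level of Pbx3 was in the adrenal gland, 667.8 and 634.9 CPM, as was that of Meis2 (297.4 and 296.7). Of 12 homeobox genes of the head, 9 were tested and 3 (Otx1, Otx2 and Emx2) were lower in the trunk. Otx2, which patterns forebrain and eye, was at 644.3 and 596.1 CPM in the eye, where no Hox gene was detected. Of 10 chromatin regulators of the clusters, 2 were higher and 4 lower in the trunk, with the Trithorax gene Kmt2a lower, a share of 6 in 10 beside 50.4% of all genes.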

How the data were processed

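RNA of flash-frozen tissues was turned into 3′ mRNA libraries (QuantSeq) and sequenced on a NextSeq 500, per the labels' protocols. The submitters' processing notes name bcl2fastq 2.17, TopHat2 2.1.1, HTSeq 0.9.1 and build mm10, and the strand setting and annotation are not given in the sources used here. The authors deposited raw read counts per gene, in 1 table per tissue. From these, CPM was computed with column sums, with no scaling by length because tags come from the 3′ end of a transcript. Tissue contrasts were fitted to the 48 untreated libraries with edgeR 4.0.16 (quasi-likelihood F test, TMM scaling, filterByExpr with a minimum count of 10, 18298 genes, 24 residual degrees of freedom) in R 4.3.3, with Benjamini-Hochberg adjustment over all genes of a contrast and a threshold of 0.05. Treatments were fitted per tissue within sets. DESeq2 1.42.0 was an alternative, and others changed the scaling, filter, dispersion, libraries or replicate block. The fits were tested on simulated data. Where a group had 0 counts, folds are lower bounds against 3 counts over the group, and ratios resting on 1 to 3 counts carry 95% binomial intervals. These intervals cover counting error only. Such folds and ratios use column sums and not TMM. Gene positions come from GENCODE on GRCm38 and promoter windows from RefSeq on GRCm38.p6.

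Any member may be named with its levels. Values are given for up to 5 called members with the largest change in each direction of a tissue contrast, for the called members of the 5 treatment comparisons with the most calls, and for members called alike in 3 or more tissues under 1 treatment. Other treatment results were chosen after their values were seen. The members, lists, sets and contrasts were chosen with earlier results of these data known. Replicate numbers were not used to pair libraries in the main fits. No 2 of the 442 replicate pairs held identical counts, and the lowest chi-square per degree of freedom of a pair was 1.12. Some genes are not reported here.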

Additional observations from a re-analysis of the deposited data

Results flagged for a closer look

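In groups of 4 libraries, 22 pairs of a member and a group could be examined for a library far from the other 3, and 3 were found, all in the jejunum with Sofosbuvir. Chance gives about 1 such case in 20 groups. Hoxa4 was at 36.4 CPM in replicate 1, where the group's lowest value was 8.92 and its median 11.4. Hoxd11 was at 11.2 CPM in the same library, with a lowest value of 0.973 and a median of 2.24. Hoxc6 was at 18.7 CPM in another library of the group, with a lowest value of 6.995 and a median of 7.94. Hoxa4 is a gene of the jejunum in untreated mice, whereas Hoxd11 was not detected there.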

How the results depend on the processing

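Of 230 values under other settings, 200 stayed within 1.5 times the reported count, or within the spread of a correlation, and in 181 alternative fits of untreated tissues 0 called a member in the opposite direction. The number of members called between trunk and head was 24 with DESeq2 in place of 6. Between jejunum and stomach it was 10 with column sums as scaling, 8 with a trended dispersion and 9 with DESeq2, in place of 5. Between pancreas and parotid gland it was 10 with column sums, 3 with only these tissues in the fit and 3 with DESeq2, in place of 5. Between brain and pituitary gland it was 3 with only these tissues, in place of 11. Over all treatments 59 members were called with DESeq2, in place of 124. The median correlation of neighbours was 0.87 with a pseudocount of 2 and 0.84 over all members with a count, in place of 0.88. The trended dispersion, the tissues as 2 groups and the fits without libraries that stand apart were chosen after seeing the data.

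Leaving out 1 library at a time gave 4 to 6 calls between trunk and head, 3 to 7 between jejunum and stomach, 7 to 8 between ileum and jejunum, 17 to 21 between colon and ileum, 22 to 24 between kidney and lung, 14 to 16 between kidney and adrenal gland, 23 to 25 between testis and kidney, 19 to 20 between aorta and heart, 18 to 20 between skeletal muscle and heart, 9 to 11 between WAT and skin, 5 to 6 between bone marrow and thymus, 3 to 5 between pancreas and parotid gland, 9 to 12 between lung and thyroid gland and 7 to 11 between brain and pituitary gland. The libraries that moved a count by 1.5 times or more were heart 2, liver 2 and pancreas 2 and 4 (4 calls each between trunk and head), stomach 2 and 4 (3 calls each), skin 2 (9 calls against WAT), pancreas 2 and 4 and parotid gland 4 (3 calls each between these glands) and pituitary gland 1 (7 calls). In the treatment comparisons the range was 4 to 7 for Cisplatin in the ileum, 2 to 4 in the colon and 2 to 5 in the skin, 0 to 6 for Risedronate in the colon and 0 to 4 for Aripiprazole in the skin. In the skin, Cisplatin had 2 calls without CMCTween 3 and 3 without Cisplatin 1. The lone library left in a group was assumed to vary like the other groups, and the cause of these changes was not tested.

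The labels share replicate numbers between tissues. The deviations of same-numbered libraries had a median correlation of -0.04 for numbers 1 and 3 and 0.003 for 2 and 4. Single pairs of tissues ran from -0.446 to 0.34 for 1 and 3 and from -0.395 to 0.477 for 2 and 4. Whether some tissues share mice was not tested. With the replicate number as a block, 6 members were called between trunk and head, all among the 6 called without it, and 5 between jejunum and stomach, of which 4 were among the 5 called without it. Over all treatments 89 were called in place of 124. Treated libraries were shallow, with a median of 718303 counts in set B, so a member near 1 CPM could have 0 counts there.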
